A study of Mus musculus with 3 samples.

Results

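CpG-rich promoter peaks are DNase I hypersensitive sites at gene starts that sit in CpG-rich sequence. A peak was a member when its midpoint lay within 1 kb of an annotated start of a protein-coding gene and the 1 kb of sequence centred on the nearest start had an observed over expected CpG ratio of 0.6 or more. This ratio sets the number of CpG against that expected from the C and G content. By this rule 20530 of the 106279 peaks on chromosomes in biological replicate 2 (19.3%) were members. The other peaks were 9702 CpG-poor promoter peaks (same distance, lower ratio) and 76047 distal peaks. The rule used position and genome sequence, and no measured value. All cells were MEL, an immortalized murine erythroleukaemia line, and all were exposed to zinc dichloride for 24 hours at a labelled dose of 125 whose unit prefix cannot be read in the label. No untreated library was analysed here, so nothing below measures an effect of zinc. Biological replicate 1 (2 technical libraries, read together) and biological replicate 2 (1 library) each have 1 list of peaks, every peak 150 bp wide with a score from the authors, and a list of hotspots, which are broader stretches enriched in DNase I cuts. Depth is unknown for both, since the files give no read counts. Intervals in brackets are 95% Wilson intervals over peaks or genes, which cover counting error only.

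In vertebrate genomes most CpG dinucleotides are methylated, and they are rare because methylated CpG mutates readily. The exceptions are CpG islands, stretches kept free of methylation that hold the starts of most housekeeping genes and of many developmental regulators. Their promoters usually lack a TATA box, start transcription at several nearby sites, and are bound by factors such as SP1, NRF1, ETS proteins, NFY and CREB. Islands of active genes are accessible, whereas those of silent developmental regulators are held by Polycomb complexes and those of many germ line genes are methylated. The labelled cell type was set against marker genes. Of 10 erythroid marker genes, such as Gata1, Klf1 and Tfrc, replicate 2 showed promoter accessibility (a peak of either class) at 8 and replicate 1 at 10. Over all protein-coding genes 48.7% and 63% had such a peak. In replicate 2 there were such peaks at 2 of 7 T cell, 1 of 5 B cell, 1 of 4 liver, 1 of 4 neuron and 1 of 4 skeletal muscle markers. In replicate 1 these counts were 5 of 7, 2 of 5, 1 of 4, 2 of 4 and 1 of 4.

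Sequences of member peaks show what the class is made of. For each factor known at CpG islands, the line below is the member with the highest score in replicate 2 that held the factor's letters and overlapped no exon, from the mm10 genome, 5′ to 3′ on the strand of the gene. Capitals mark the match, which was sought on both strands and may read as its reverse complement. The letters searched were GCGCNTGCG for NRF1, CCGGAAG for ETS factors, GGGCGGG for the GC box of SP and KLF factors, CCAATNNG for NFY, TGACGTNA for CREB and ATF, and CTCGCGAG for ZBTB33, the last a factor that can bind methylated CpG. A match is a description of the letters and not a measured binding site.
Pde4dip, NRF1, chr3:97768016-97768165: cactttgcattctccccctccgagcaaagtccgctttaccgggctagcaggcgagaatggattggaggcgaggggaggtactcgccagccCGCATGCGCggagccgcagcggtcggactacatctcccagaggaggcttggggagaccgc
Fem1a, ETS, chr17:56256316-56256465: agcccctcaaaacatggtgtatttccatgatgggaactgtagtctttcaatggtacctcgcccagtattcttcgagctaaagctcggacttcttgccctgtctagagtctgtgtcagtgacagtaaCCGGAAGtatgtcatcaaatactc
Eif2s3y, GC box, chrY:1010256-1010405: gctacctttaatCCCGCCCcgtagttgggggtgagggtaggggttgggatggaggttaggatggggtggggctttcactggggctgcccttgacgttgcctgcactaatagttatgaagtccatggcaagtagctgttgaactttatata
Aph1a, NFY, chr3:95893636-95893785: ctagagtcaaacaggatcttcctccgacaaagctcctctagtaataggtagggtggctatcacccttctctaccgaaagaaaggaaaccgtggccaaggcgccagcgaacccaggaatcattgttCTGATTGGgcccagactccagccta
Pmvk, CREB, chr3:89458756-89458905: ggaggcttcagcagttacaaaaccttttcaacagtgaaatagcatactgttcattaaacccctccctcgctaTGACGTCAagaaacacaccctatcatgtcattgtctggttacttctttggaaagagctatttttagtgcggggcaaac
Ddx3x, ZBTB33, chrX:13280636-13280785: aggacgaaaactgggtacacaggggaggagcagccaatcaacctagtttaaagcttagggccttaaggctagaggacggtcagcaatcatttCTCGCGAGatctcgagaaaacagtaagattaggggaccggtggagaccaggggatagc

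The Pde4dip peak held 13 CpG in its 150 bp and lay 82 bp upstream of the start, in an intron of another transcript. Its score was 101, and the overlapping peak in replicate 1 scored 148. Pde4dip encodes an anchor of phosphodiesterase at the centrosome and Golgi. The Fem1a peak, 419 bp upstream of this gene for a substrate receptor of a ubiquitin ligase, held 4 CpG and scored 87. It overlapped no replicate 1 peak. The Eif2s3y peak, 212 bp upstream of the Y-linked gene for a subunit of initiation factor eIF2, scored 110 and 149 with 3 CpG. The Aph1a peak, 258 bp upstream of a gamma-secretase subunit gene, scored 98 and 150 with 5 CpG. Pmvk, which encodes an enzyme of the mevalonate pathway, had its peak 287 bp upstream, with scores of 86 and 133 and 3 CpG. The Ddx3x peak, 259 bp upstream of this X-linked RNA helicase gene, scored 70 with 6 CpG and overlapped no replicate 1 peak. A member of high score may therefore hold few CpG itself, because the rule reads the 1 kb around the start and not the peak. Over all members the median was 7 CpG per peak, against 3 in CpG-poor promoter peaks and 1 in distal peaks. The median GC content was 55.3%, 50.7% and 46.0% in that order. No CpG at all was found in 2.57% of members and in 26.6% of distal peaks.

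Members ranked high in both lists. The authors' score is a whole number no larger than the peak width and what it counts is not stated, so it was used only to rank peaks within a list. In replicate 2 the members' scores had a median of 39 (quartiles 30 and 47, range 7 to 123), against 34 for CpG-poor promoter peaks and 27 for distal peaks. In replicate 1 the medians were 111, 79 and 58. The median member stood at the 72.4th percentile of the replicate 2 list and at the 83.7th of the replicate 1 list. A lower score could reflect fewer cells with an open site, fewer cuts per cell or something else, and these cannot be told apart here. When the list was cut by score into 10 equal classes, from the lowest to the highest class the share of members rose from 1.76% to 36.3% in replicate 2 and from 0.679% to 29.6% in replicate 1. The highest scores were not mainly members, however: distal peaks made up 50.5% of the top class in replicate 2 and reached 145. Members also lay in wider hotspots. The hotspot around a member was 912 bp wide in the median in replicate 2, against 605 bp for CpG-poor promoter peaks and 324 bp for distal peaks. Of the members inside hotspots, 43.8% sat in one at the ceiling of the deposited −log10 q value, compared with 33.1% and 21.4%. Replicate 1 had 303597 peaks on chromosomes, and 23371 of them (7.70%) met the rule. The number of members thus differed little between lists of very unequal length.

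**Figure D1:**
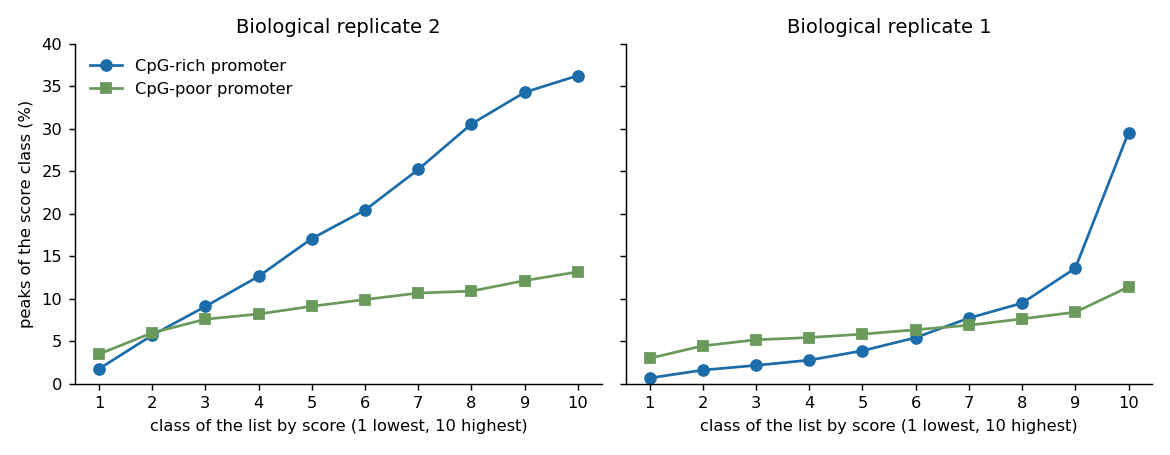
Share of CpG-rich (circles) and CpG-poor (squares) promoter peaks within each of 10 equal classes of the peak list by the authors' score, in biological replicate 2 (left) and 1 (right); distal peaks make up the rest. Members grow from 1.76% to 36.3% of the class in replicate 2 and from 0.679% to 29.6% in replicate 1.

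Within promoters both members and CpG-poor promoter peaks were most frequent in the 100 bp just upstream of the start. Positions are of the midpoint relative to the nearest start, negative upstream. The median of members was 2 bp (quartiles -217 and 357 bp) in replicate 2, and 49.4% of them lay upstream. The 200 bp before the start held 4767 members (23.2%), and the 100 bp nearest to the start alone held 3197 (15.6%). CpG-poor promoter peaks had a median of -9 bp, with 22.0% in the 200 bp before the start and 14.2% in the nearest 100 bp. Exons held 32.5% of member midpoints, introns 38.1%, and 29.4% lay outside genes. Scores followed position. The median was 43 in the 200 bp upstream, 42 from 400 to 200 bp upstream, 40 in the first 200 bp downstream, 36 from 200 to 400 bp downstream. Beyond 400 bp it was 38 upstream and 34 downstream. In these zones of replicate 2, peaks upstream had higher median scores than those at the same distance downstream. In replicate 1, taken in steps of 100 bp, this did not hold beyond 700 bp. The medians upstream and downstream were 83 and 83 from 700 to 800 bp, 78 and 79 from 800 to 900 bp, and 76 and 79 in the outermost 100 bp. The CpG content of the peak had another order. Median CpG per peak was 12 in the first 200 bp downstream and 6 from 400 to 200 bp upstream, although the latter scored higher.

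The lists of the replicates placed their members differently. In replicate 1 the 200 bp upstream of the start held 30.0% of members, and 5.64% lay from 400 to 200 bp upstream. In replicate 2 this second zone held 12.4%. Replicate 1 also had a dip just after the start: 3.62% of its members lay 100 to 200 bp downstream, against 9.40% in the 100 bp before that zone and 5.68% in the 100 bp after it. In replicate 2 the 3 shares were 6.58%, 9.57% and 6.84%. Overlap between the lists followed position. Of all replicate 2 peaks, 70.6% overlapped a replicate 1 peak. Of the members, 62.0% did (61.4 to 62.7%), against 66.4% of CpG-poor promoter peaks and 73.4% of distal peaks. The share was 86.1% (85.1 to 87.1%) for the 4767 members in the 200 bp upstream. It was 42.4% (40.5 to 44.4%) for the 2552 members from 400 to 200 bp upstream, whose median score was almost the same. From 100 to 200 bp downstream it was 42.8%. CpG-poor promoter peaks of replicate 2 had a similar profile. Their share was 86.9% in the 100 bp upstream and 49.3% from 400 to 300 bp upstream, against 88.6% and 37.9% of members.

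**Figure D2:**
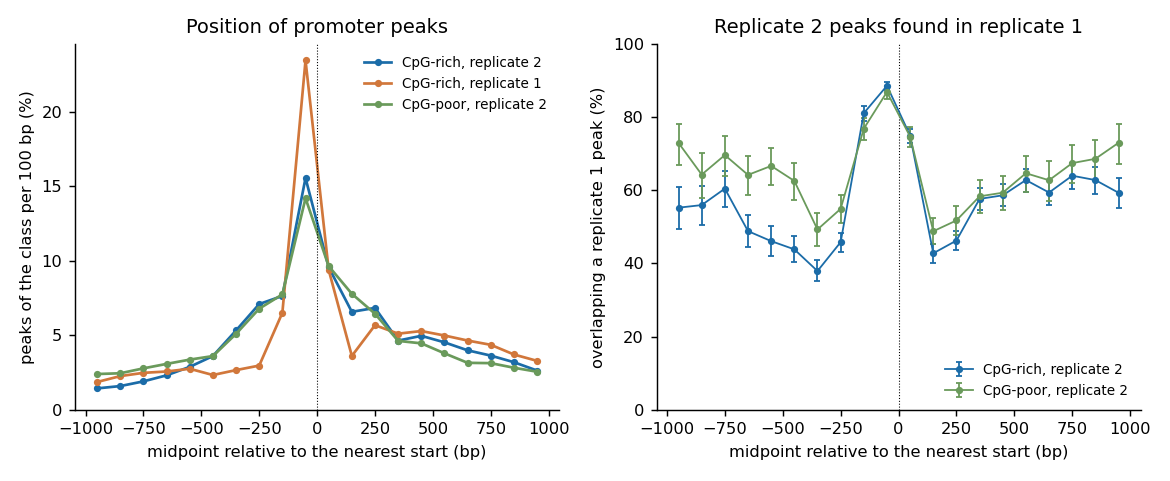
Left, share of the class per 100 bp against the midpoint's distance from the nearest start (negative upstream) for CpG-rich promoter peaks of replicate 2 (blue) and replicate 1 (orange) and CpG-poor promoter peaks of replicate 2 (green). Right, share of replicate 2 promoter peaks that overlap a replicate 1 peak, with 95% Wilson intervals; for members it is 88.6% in the 100 bp upstream and 37.9% from 400 to 300 bp upstream.

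Members without a partner seldom lay outside the hotspots of the other replicate. The midpoint of 98.7% of members lay in a replicate 1 hotspot, more than the 97.4% of CpG-poor promoter peaks and 94.3% of distal peaks, which is the reverse of the order by peak overlap. Hotspot width was not held equal between the classes. In replicate 1 the median width was 1859 bp around its members, 527 bp around its CpG-poor promoter peaks and 302 bp around its distal peaks. Only 214 members (1.04%) had neither a peak nor a hotspot there. The nearest replicate 1 midpoint was 100 bp away in the median, and within 500 bp for 98.1% of members. The 5 members with the highest scores and no overlap in replicate 1 were at Uty (score 113), Ddx3y (111), Kdm5d (103), Txnip (101) and Tedc1 (97). All 5 lay in a replicate 1 hotspot, 160 to 260 bp from its nearest peak. The lists thus differed at these promoters in where the 150 bp peak was set within an open stretch found in both. In the other direction, 51.7% of the 23371 replicate 1 members overlapped a replicate 2 peak, against 31.3% of its CpG-poor promoter peaks and 20.5% of its distal peaks. Over all replicate 1 peaks the share was 23.6%. Score was not held equal here: the median percentile in the replicate 1 list was 83.7 for members, 63.3 for CpG-poor promoter peaks and 45.7 for distal peaks.

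GC content moved with these differences. Replicate 1 members had a median GC content of 60%, against 55.3% in replicate 2. At the 7929 genes with members in both lists, the peak with the highest score had a median GC content of 64.0% in replicate 1 and 57.3% in replicate 2, and was richer in GC in replicate 1 at 67.6% of genes and in replicate 2 at 22.7%. These best peaks overlapped each other at 3961 of these genes, with a median of 160 bp between midpoints. In replicate 1 the best peak lay in the 200 bp upstream at 63.6% of genes with members, and in replicate 2 at 37.2%. Among genes whose outermost CpG-rich start had a peak in replicate 1, the share with one in replicate 2 was 91.4% (90.04 to 92.61%) in the lowest of 5 equal classes by GC content of the surrounding 1 kb and 80.2% (78.3 to 82.0%) in the highest. Whether base composition of the libraries had a part in the difference was not tested, and the depth of the libraries, which is unknown, cannot be told apart from it.

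Genes with a CpG-rich start more often had a promoter peak than other genes. Of 21938 protein-coding genes, 11524 had a CpG-rich start, and 7954 of these had a member in replicate 2 (69.0%, 68.2 to 69.9%). In replicate 1 there were 9099 (79.0%). A member was found in both replicates at 7929 genes, in replicate 1 alone at 1170, in replicate 2 alone at 25 and in neither at 2400. Of the 10414 genes without a CpG-rich start, 21.9% carried a peak at a start in replicate 2, and 39.5% did in replicate 1. By the same measure, a peak of any class at any start, the shares of genes with a CpG-rich start were 73.0% and 84.2%. The number of starts per gene was not held equal. In replicate 2 the share with a promoter peak rose with the highest CpG ratio among a gene's starts, from 6.39% below a ratio of 0.2. It was 52.6% between 0.5 and 0.6, 64.1% between 0.6 and 0.7, 78.1% between 0.9 and 1 and 76.6% at 1 and over. There was no step at 0.6. The highest score at a gene rose too, from a median of 29.5 below 0.2 to 46 between 0.5 and 0.6, and then stayed between 46 and 48. Among members, the score was flat over the CpG ratio: the median was 39 in the lowest of 5 equal classes of members by ratio and 38 in the highest. GC content showed another order than the CpG ratio. Among genes with a CpG-rich start, 78.8% had a peak at the outermost such start in replicate 2 where GC content around it was 50 to 55%, and 59.6% where it was 65% or more. The shares in replicate 1 were 85.6% and 73.2%. Below 50% GC, a class of 398 genes, the shares were lower again, at 65.6% and 73.9%.

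**Figure D3:**
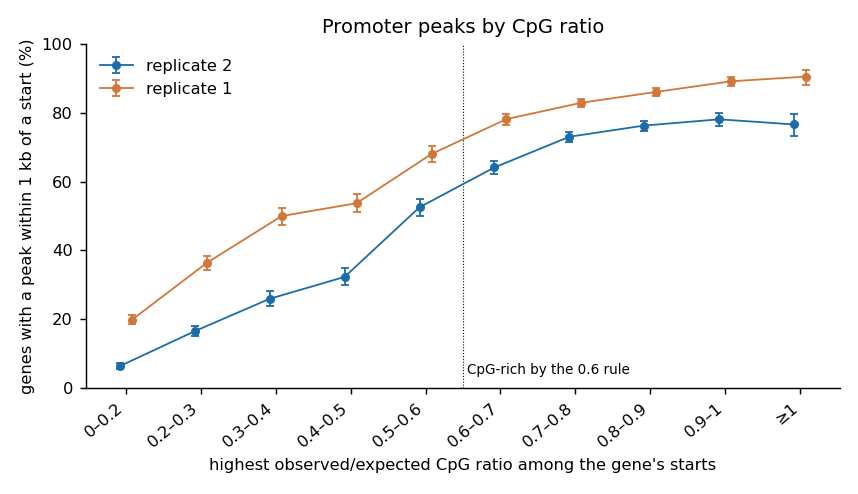
Share of protein-coding genes with any peak within 1 kb of a start, by the highest observed over expected CpG ratio among the gene's starts, in replicate 2 (blue) and replicate 1 (orange) with 95% Wilson intervals; the dotted line marks the 0.6 rule. The share in replicate 2 goes from 6.39% below 0.2 to 78.1% between 0.9 and 1 and 76.6% at 1 and over, with no step at the line.

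Presence in replicate 2 followed the score in replicate 1. When the 9099 genes with replicate 1 members were put into 10 equal classes by their best score, 45.5% of the lowest class had a member in replicate 2, 81.3% of the second, and 96.8% of the highest. The exceptions at the top included genes of broad use. Asph (aspartate beta-hydroxylase) had a score of 150 in replicate 1 and no peak in replicate 2. Actr3, a subunit of the actin-nucleating Arp2/3 complex, scored 149, as did Kbtbd8, Kif21b and Spag7. Cks2, a cyclin-dependent kinase subunit, scored 148, as did Klhl25, the heat shock gene Hspa8 and the shared promoter of the mitochondrial chaperonin genes Hspd1 and Hspe1. GC content in the 1 kb around these starts ran from 55% at Klhl25 to 72.1% at Hspe1. The median was 62.8% over the 1170 genes found in replicate 1 alone and 60.5% over the genes found in both.

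Many accessible CpG-rich promoters carried more than 1 peak. The members of replicate 2 had 12329 different nearest starts. Of these, 6790 had 1 member and 44.9% had more, up to 8. Among the nearest starts of CpG-poor promoter peaks, 39.4% had more than 1 such peak. Genes with members, counted over all their starts, had a median of 3 (quartiles 2 and 4). Neighbouring members within 1 kb of each other lay 340 bp apart in the median (quartiles 240 and 500 bp), most often 280 to 299 bp. In replicate 1 the median was 480 bp. CpG-poor promoter peaks had similar medians, 320 bp in replicate 2 and 460 bp in replicate 1. Members seldom overlapped their neighbour: 8.57% of such pairs in replicate 2 did, against 13.5% of CpG-poor promoter pairs and 20.3% of neighbouring distal pairs. Gse1, which encodes a subunit of a histone deacetylase complex, had the most members nearest its starts, 13 in replicate 2, none above a score of 38. Junb, a subunit of AP-1, had 11, and so did Nr4a2, a nuclear receptor gene. Their best scores were 56 and 43. Mxi1, Foxp1, Arrdc3, Jarid2, Homer1, Rcc1 and Abhd18 had 10 each. The count includes every annotated start of a gene, so genes with many starts have more room.

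Letters of promoter factors marked the members. Of the members of replicate 2, 14.0% held a GC box, against 6.77% of CpG-poor promoter peaks and 1.61% of distal peaks. ETS letters were in 6.27%, 2.91% and 0.896%, and NRF1 letters in 4.10%, 0.917% and 0.179%. CREB letters were in 1.80% of members and 0.427% of distal peaks, and the ZBTB33 palindrome in 0.624% and 0.0118%. These strings hold CpG, and the CpG content of the sequence sets part of their frequency. The fixed letters of the NFY string hold none, though its open positions can form one. NFY letters were in 6.96% of members, 5.39% of CpG-poor promoter peaks and 4.22% of distal peaks. For YY1 letters (AANATGGC), which hold none, these shares were 3.85%, 2.515% and 2.59%. Other strings were less frequent in members. GATA letters (AGATAA) were in 4.61% of members, 7.30% of CpG-poor promoter peaks and 10.7% of distal peaks. Those of the ETS factor PU.1 (GAGGAAGT) were in 1.36%, 3.78% and 5.81%, and the TATA box (TATAAA) in 3.98%, 5.04% and 8.40%. AGATAA and TATAAA are rich in A and T, and GC content was not held equal between the classes. The letters of the erythroid factor KLF1 (CCACACCC) were in 1.38% of members and 1.31% of distal peaks, which differed little. Metal response elements (TGCNCNCG), the site of the zinc sensor Mtf1, were in 8.69% of members and 1.77% of distal peaks. These letters hold a CpG and can overlap an NRF1 match.

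The matches had their own positions within promoters. ETS letters were in 18.2% of members centred in the 100 bp upstream of the start, in 12.7% of those in the first 100 bp downstream and in 7.13% of those 200 to 100 bp upstream. NRF1 letters had the same order, with 12.7%, 8.04% and 5.80%. The NFY box lay further up, in 14.98% of the members in the last 100 bp upstream, 13.4% of those 200 to 100 bp upstream and 7.33% of those just downstream. In replicate 1 the NFY share was higher at 200 to 100 bp upstream (21.4%) than in the 100 bp nearest to the start (15.5%). The GC box was in 32.2% of members in the last 100 bp upstream in replicate 2 and in 43.8% in replicate 1. GATA letters had the opposite profile, with 2.10% in the 200 bp upstream and 6.49% from 1000 to 200 bp upstream. GC content was not held equal between these zones. Its median in replicate 2 members was 62% in the 200 bp upstream, 52% from 400 to 200 bp and 48% beyond 400 bp upstream. Within the 200 bp upstream, members with ETS letters overlapped a replicate 1 peak in 95.1% of cases and those without in 84.6%. For NRF1 letters the shares were 94.4% and 85.2%, and for the NFY box 94.5% and 84.7%. Other letters showed such a gap too, such as CREB (94.9% and 85.8%) and PU.1 (96.6% and 86.0%, with 59 members holding a match). The order was reversed for GATA letters (79% and 86.3%, with 100 members holding a match) and the TATA box (77.6% and 86.3%, with 125). KLF1 letters differed little (84.8% and 86.1%, with 92). Replicate 1 members in this zone showed no such reversal in their overlap with replicate 2 peaks. With and without a match, their shares were 65.7% and 62.7% for GATA letters and 64.1% and 62.7% for the TATA box. For KLF1 letters they were 68.5% and 62.6%. Position within the 200 bp was not held equal between members with and without a match. Scores in replicate 2 hardly differed: the medians with and without ETS letters were 44 and 43, and with and without NRF1 letters 42 and 43.

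**Figure D4:**
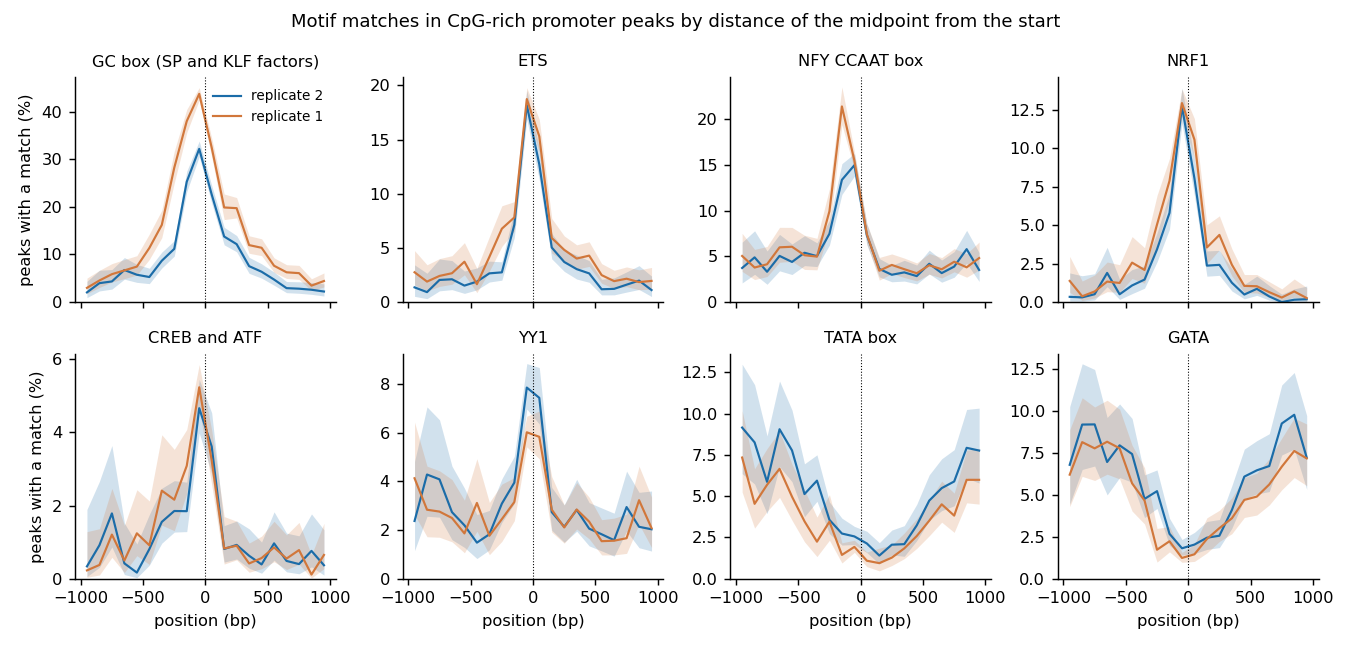
Share of CpG-rich promoter peaks with at least 1 match to the letters of each factor, per 100 bp of midpoint distance from the nearest start (negative upstream), in replicate 2 (blue) and replicate 1 (orange), with 95% Wilson bands and a separate vertical scale per panel. ETS and NRF1 matches are most frequent in the 100 bp upstream (18.2% and 12.7% in replicate 2), while GATA and TATA box matches are least frequent around the start. GC content also differs with position and was not held equal.

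CpG-rich starts with and without a called peak differed in some of these letters and not in others. The 150 bp upstream of the outermost CpG-rich start of a gene was searched, whatever the peaks within it. ETS letters were found at 13.5% (12.8 to 14.3%) of 7970 starts with a peak in replicate 2, at 8.50% of 1177 with a peak in replicate 1 alone, and at 3.20% (2.56 to 3.98%) of 2377 with none. The share over the outermost starts of all protein-coding genes was 6.64%. For NRF1 letters the 4 values were 12.2%, 7.56%, 4.67% and 5.46%, and for the NFY box 15.6%, 10.3%, 9.59% and 11.6%. The GC box did not follow this order, with 41.8%, 48.0%, 39.8% and 25.3%. Nor did metal response elements, with 13.9%, 14.8%, 16.7% and 8.47%. Median GC content of the same 150 bp was 64.0%, 68.0% and 67.3% in the first 3 groups. Starts without a called peak were thus as rich in GC boxes as those with one, or nearly so, and held fewer ETS and NRF1 letters.

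The highest scores among members came from few places. The top member lay 21 bp upstream of Gm21887 on chromosome X (123 in replicate 2 and 150 in replicate 1). Next were 3 genes of the Y chromosome: Uty, a relative of the histone demethylase gene Kdm6a (113), the RNA helicase gene Ddx3y (111) and Eif2s3y (110). Adssl1, which encodes an adenylosuccinate synthase, scored 107, and the Y-linked demethylase gene Kdm5d 103. Txnip, the inhibitor of thioredoxin, and Pde4dip scored 101, the peak shared by Cep57 and Fam76b 100, and that shared by the histone genes Hist2h2ac and Hist2h2be 99. Cwf19l2 also scored 99, and Aph1a and Hist2h2bb 98. All of these genes had a replicate 1 score of 143 or more. A score of 90, a value chosen after the scores were seen, was reached by 33 members in 14 megabases. Chromosome 3 held 16 of them, Y held 5, and chromosomes 9 and X held 4 each. Chromosome 12 held 3, and chromosome 1 held 1. Distal peaks around them scored high as well. Their median within 1 Mb exceeded the list's median of 27 for 31 of the 33, with a median of 42, against 28 around 1027 members taken at regular steps from the list. The 4 on X were nearer to that level, with 30. Whether the local level had a part in these scores was not tested. The 8 members on the Y chromosome had a median score of 98, against 38 on X. The sources used here do not say how reads from repeated sequence were placed, which bears on Gm21887 and the histone genes with near-identical copies.

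Genes for the basic machinery of the cell had accessible CpG-rich starts almost without exception. Beside the 69.0% of all genes with a CpG-rich start that had a member in replicate 2, the count was 34 of 34 for proteasome subunits, 68 of 69 for the respiratory chain and 44 of 45 for splicing factors, the exception being Srsf12. It was 35 of 36 for replication factors, 72 of 75 for cytosolic ribosomal proteins, 47 of 51 for translation initiation factors and 69 of 75 for mitochondrial ribosomal proteins. Their best scores were close to those of all genes with a member. The list medians ran from 46 to 50.5, and the median over all genes was 47. Among the highest of their lists were Eif2s3y (110), described above, Psmb4, a proteasome subunit gene (81), Rpl36a (77), the splicing factor gene Sf3b4 (77) and Atp5g2, a subunit of ATP synthase (71). All 75 ribosomal protein genes of each kind had a member in replicate 1, where the share over all genes was 79.0%. Of 63 replication-dependent histone genes 50 had a member, with a median best score of 55. Near-identical copies are common in this family, so its counts are uncertain. Hist1h2ao, Hist1h2ap, Hist1h2bq and Hist1h2br were among those with no peak in either replicate.

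**Figure D5:**
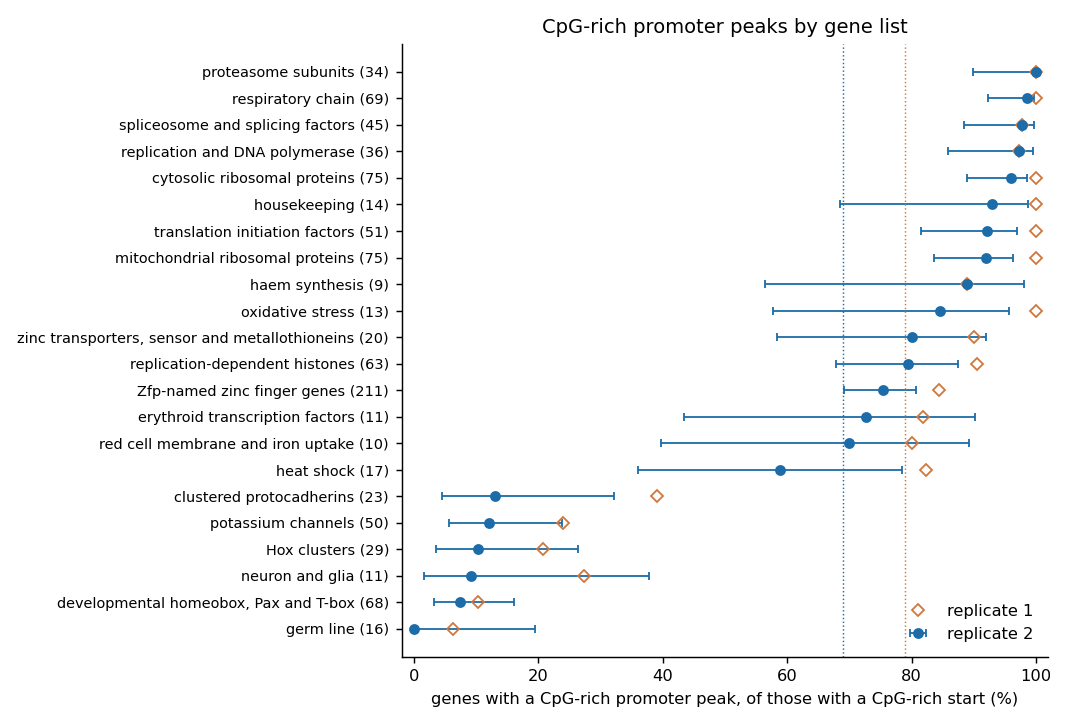
Share of the genes with a CpG-rich start that had a CpG-rich promoter peak in replicate 2 (filled circles, 95% Wilson intervals) and replicate 1 (open diamonds), for lists with at least 9 such genes, whose number is in brackets; dotted lines mark all genes (69.0% and 79.0%). Lists of basic machinery lie above 90% in replicate 2, and homeobox, germ line and ion channel lists below 15%.

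Red cell genes with a CpG-rich start were near the background, which was 69.0% over all genes with a CpG-rich start in replicate 2. A member was found at 8 of 9 haem synthesis genes, 8 of 11 erythroid transcription factor genes and 7 of 10 genes of the red cell membrane and iron uptake. Scores at Alad, which makes porphobilinogen, were 73 in replicate 2 and 143 in replicate 1, and those at Uros and Urod, of later steps, were 62 and 58 in replicate 2. The mitochondrial iron importer gene Slc25a37 had none at its CpG-rich start. Foxo3 and Zfpm1 had the highest scores among the transcription factor genes (56 each), followed by Ldb1 (53) and Tal1 (52). Cbfa2t3 and Sox6 had none there. Add1, which encodes the membrane skeleton protein adducin, scored 73. Tfrc, the transferrin receptor gene, scored 47 with 7 members. Many erythroid genes lie outside the class, such as Gata1 (ratio 0.307) and Klf1 (0.0783), whose promoter peaks are CpG-poor.

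Genes tied to zinc and stress were mixed. Of 20 zinc genes with a CpG-rich start 16 had a member in replicate 2 (80%, 58.4 to 91.9%) and 18 in replicate 1 (90%). Over all genes with a CpG-rich start the shares were 69.0% and 79.0%, so the zinc interval holds the background. The zinc transporter genes Slc39a9 (score 62), Slc30a5 (58) and Slc39a10 (55) were the highest with the metallothionein gene Mt2 (56). Slc30a4 had no peak in either. Among 13 genes of the oxidative stress response 11 had a member in replicate 2 and 13 in replicate 1. The replicate 2 interval (57.8 to 95.7%) holds the background as well. The highest were Bach1 (67), a repressor released by haem, and Keap1 (63), which holds back the activator Nrf2. Heat shock genes had a member at 10 of 17 in replicate 2, a share whose interval (36.0 to 78.4%) holds the background, and at 14 of 17 in replicate 1. Hsp90ab1 (78), Hsph1 (71), the endoplasmic reticulum chaperone gene Hspa5 (63) and Dnajb1 (59) were the highest. In replicate 1 alone were Hspa8, Hspd1 and Hspe1, and Hsp90aa1 with a score of 136 (named after its values were seen). GC content around these 4 starts was 66.9%, 70.2%, 72.1% and 71.8%, against a median of 61.1% over all CpG-rich genes. The inducible genes Hspa1a and Hspa1b, near-identical copies of each other, and Hspb1 had no peak within 1 kb of a CpG-rich start in either list.

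CpG-rich starts of developmental and lineage genes were mostly without a peak. Over all genes with a CpG-rich start, 69.0% had a member in replicate 2 and 79.0% in replicate 1. Of 68 developmental homeobox, Pax and T-box genes 5 had a member in replicate 2 and 7 in replicate 1. The highest scores were at Tbx15 (79), Pax9 (52), Six5 (52) and Dlx1 (51, with 6 members), each of which also had members in replicate 1 (140 to 146). Alx1, Alx4 and Barx1 are among the 61 with no peak in either. In the Hox clusters 3 of 29 genes had a member: Hoxc9 (48), Hoxa7 (34) and Hoxa10 (20), each with a single peak in replicate 2. Clustered protocadherins had 3 of 23, led by Pcdha8 (45). Potassium channel genes had 6 of 50, led by Kcnab3 (65), an auxiliary subunit gene, and Kcnk5 (49). None of 16 germ line genes had one (upper limit of the interval 19.4%), among them Dazl, Ddx4, Asz1 and Hormad1, and 1 had a member in replicate 1. Neuronal and glial genes had 1 of 11, the same Dlx1. Zinc finger genes named Zfp, a family with many CpG-rich starts, were near the background with 159 of 211, led by Zfp687 (90) and Zfp524 (85).

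Genes of other blood lineages and tissues gave small counts. A member was found at 1 of 3 megakaryocyte, 0 of 4 myeloid, 1 of 5 T cell, 1 of 3 B cell and 1 of 2 skeletal muscle genes with a CpG-rich start, and no liver gene of the list had such a start. The members were at Nbeal2 (46), Gata3 (51), Vpreb1 (49) and Mylpf (50). The Vpreb1 peak lies 5 bp from a start of Top3b so both genes share it. In replicate 1 the counts were 1 of 3, 3 of 4, 3 of 5, 1 of 3 and 1 of 2. The shares over all genes with a CpG-rich start were 69.0% in replicate 2 and 79.0% in replicate 1.

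Genes that share a promoter with an opposite neighbour more often had a member. Of 2013 genes with a CpG-rich start and a divergent partner 89.4% (88.0 to 90.7%) had a member in replicate 2, against 64.7% (63.7 to 65.7%) of the other 9511. The values in replicate 1 were 95.03% and 75.6%. Best scores were 50 and 46 in the median in replicate 2. Both genes of a pair can take their count from the same peak, so they are not independent. Across chromosomes with more than 300 CpG-rich genes, the share with a member was lowest on chromosome 14 (62.0%, 57.2 to 66.5%) and X (62.8%, 57.2 to 68.1%). It was highest on chromosome 16 (75.9%, 71.4 to 80.0%). These extremes were picked after the values were seen, and neighbouring genes can share a peak. Whether chromosomes differ was not tested.

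Peaks next to the limits of the rule had similar median scores on either side. The 1545 promoter peaks with a ratio from 0.55 to 0.60 had a median score of 39, and the 1868 from 0.60 to 0.65 had the same. A replicate 1 peak overlapped 63.3% and 62.9% of them. At the distance limit, the 832 peaks over 900 and up to 1000 bp from a CpG-rich start had a median score of 33, and the 678 peaks over 1000 and up to 1100 bp away had 34. A replicate 1 peak overlapped 57.8% of the former and 61.5% of the latter.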

How the data were processed

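DNase-seq was measured in 3 libraries of 1 group, 2 technical libraries of biological replicate 1 and 1 library of biological replicate 2. The authors deposited peak and hotspot lists in mm10, per the labels, with the aligner and caller not given in the sources used here. The whole-series lists were read as biological replicate 1, because the deposited text records of its libraries name the alignment behind them, and the other pair as biological replicate 2. The peak score and the −log10 q value of a hotspot are the authors' own, as deposited in the lists. The score was used only to rank peaks within a list. Depth is unknown. All 21 chromosomes of each list lay within the lengths of the GRCm38 reference. Peaks on other contigs (312 in replicate 2 and 452 in replicate 1) were left out.

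Starts were those of all transcripts of 21938 protein-coding genes in GENCODE mouse release 21. For each peak the nearest start to its midpoint was found and the CpG ratio of the 1 kb around that start was computed. A gene had a member when one lay within 1 kb of one of its CpG-rich starts. An overlap was at least 1 bp. Motifs (19 strings, both strands) were sought in the 150 bp of each peak, and 28 gene lists were counted. Genes were named by rule: the 15 highest scores, the 10 genes with most members, up to 4 highest and 4 without a peak per list, the 5 highest members without overlap, and the 10 highest genes found in replicate 1 alone. The members and lists were chosen with earlier results of these data known. No p-value was computed, since each replicate has 1 list, and all values are counts, shares with Wilson intervals (95%) or medians. Calculations used Python 3.11.15 with NumPy 2.4.6, pandas 2.3.3 and SciPy 1.17.1, and the functions were tested on simulated sequences and peaks. Alternatives changed the distance, CpG limit, starts, score, overlap, motif window and replicate. One gene that the naming rule gives is not reported here.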

Additional observations from a re-analysis of the deposited data

How the results depend on the processing

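The number of members (20530) stayed within 1.5 times of its value under every alternative run, from 14764 within 500 bp of a start to 24633 within 2000 bp. The share of members that overlapped a replicate 1 peak (62.0%) was 41.0% when 50% of both peaks had to overlap, 54.0% against as many replicate 1 peaks as replicate 2 has, 63.5% within 500 bp and 65.5% in the highest-scoring 50% of peaks. The median score (39) was 40 within 500 bp and 42 in the highest-scoring 50%, and it was 111 in replicate 1 and 125 in its highest-scoring peaks, where the scale of the list differs. The median position (2 bp) was -14 bp within 500 bp, 15 bp within 2000 bp, 7 bp with starts of protein-coding transcripts alone, 22 bp with the outermost start of each gene, -11.5 bp in the highest-scoring 50% and -14 bp in the highest-scoring peaks of replicate 1. The share of genes with a member (69.0%) was 66.5% within 500 bp, 70.4% within 2000 bp, 67.2% at a CpG ratio of 0.5, 70.4% at 0.7, 67.1% with a GC content of at least 55% as well, 70.4% with outermost starts, 65.3% in the highest-scoring 50%, 79.0% in replicate 1 and 76.1% in its highest-scoring peaks. Of the 27 gene lists with a CpG-rich start, 12 had a share above the interval of the replicate 2 value in replicate 1 and none had one below it. Of 19 motifs, 13 were more frequent and 3 less frequent in replicate 1 beyond that interval, and all 19 were more frequent in 250 bp around the midpoint, a longer window. Leaving out a replicate leaves 1 list, so the values of both are given side by side. No paired analysis was possible because the libraries form 1 group. The unknown depth limits all absences: a start without a peak was not called in that list, and nothing more.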
